A study of Homo sapiens with 4 samples.

Results

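The 10 genes of squamous and stratified epithelium, *CRCT1*, *SFN*, *TRIM29*, *TP63*, *IVL*, *SPRR1B*, *SERPINB5*, *IGFL1*, *LY6D* and *FXYD3*, were followed over TGF-β1 treatment of OVCA420 cells. They are 10 of the 33694 genes in the count matrices, and all 10 were found by symbol. They were chosen by function with measured values of these libraries in view, so their levels are a description and support no test. In outline, *CRCT1*, *IGFL1*, *SFN* and *TP63* were at least 2-fold higher than Ctrl at 1-day, and *CRCT1* and *IGFL1* were still so at 7-day. *TRIM29* and *FXYD3* were lower at every treated time point and lowest at 7-day. *SERPINB5* stayed within 2-fold of Ctrl throughout. *SPRR1B*, *LY6D* and *IVL* were at 3.88 CPM or less in all 4 libraries, and *IVL* was at the edge of detection.

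OVCA420 is an established human ovarian cancer cell line. Cells were left untreated (Ctrl) or given TGF-β1 at 10 ng/mL for 1, 3 or 7 days (1-day, 3-day and 7-day), and polyA RNA of single cells was counted with a 10x Genomics 3′ kit. All treated cells received the same dose, the medium with TGF-β1 was renewed every 2 days, and collection was synchronized. There is 1 library per condition and 4 libraries in all, so condition and library cannot be told apart and no p-value is given.

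Stratified epithelia such as epidermis and esophagus renew from a basal layer attached to a basement membrane, and their cells mature as they move outwards. The transcription factor p63 establishes the basal program. Suprabasal cells then replace basal keratins with others and build the cornified envelope, a shell of proteins such as involucrin and small proline-rich proteins that transglutaminases link together. Many envelope genes lie side by side on chromosome 1 in the epidermal differentiation complex. TGF-β1 is known for slowing the division of epithelial cells and for driving epithelial-mesenchymal transition (EMT), in which epithelial cells take on mesenchymal traits.

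The promoters of 4 genes are shown, 2 of genes with low levels and 2 of abundant genes that were higher after treatment. *IVL* and *SPRR1B* encode envelope precursors that were at 3.88 CPM or less in every library, while *SFN* and *IGFL1* were abundant after treatment. Each line gives the 250 bases before the RefSeq start site on GRCh38.p14, 5′ to 3′. Capitals mark the motifs searched on both strands. These were AP-1 (TGACTCA or TGAGTCA), the SMAD box CAGAC, the E-box CAGGTG bound by ZEB and SNAI factors, and TATAAA.
*IVL*, plus strand, chr1:152908296-152908545: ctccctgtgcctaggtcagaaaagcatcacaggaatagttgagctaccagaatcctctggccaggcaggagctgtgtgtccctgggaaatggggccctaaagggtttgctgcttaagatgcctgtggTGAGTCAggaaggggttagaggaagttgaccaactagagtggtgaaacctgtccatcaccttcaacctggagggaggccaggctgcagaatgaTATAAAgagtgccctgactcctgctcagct
*SPRR1B*, plus strand, chr1:153030953-153031202: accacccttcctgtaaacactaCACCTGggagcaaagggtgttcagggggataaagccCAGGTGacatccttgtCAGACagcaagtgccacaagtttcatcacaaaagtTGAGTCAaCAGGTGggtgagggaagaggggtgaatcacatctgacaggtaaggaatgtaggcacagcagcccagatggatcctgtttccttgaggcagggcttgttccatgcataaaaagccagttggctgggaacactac
*SFN*, plus strand, chr1:26862899-26863148: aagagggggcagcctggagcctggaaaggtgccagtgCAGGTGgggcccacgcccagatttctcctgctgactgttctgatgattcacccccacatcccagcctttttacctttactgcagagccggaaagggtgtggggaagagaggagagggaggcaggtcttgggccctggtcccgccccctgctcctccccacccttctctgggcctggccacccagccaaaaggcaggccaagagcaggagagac
*IGFL1*, plus strand, chr19:46229492-46229741: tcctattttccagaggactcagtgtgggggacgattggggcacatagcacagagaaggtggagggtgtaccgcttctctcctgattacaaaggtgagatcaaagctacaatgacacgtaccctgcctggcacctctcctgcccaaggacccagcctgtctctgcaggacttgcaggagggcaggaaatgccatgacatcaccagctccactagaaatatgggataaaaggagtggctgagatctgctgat

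Of the 10 genes, 7 were matched in the RefSeq promoter table (*SFN*, *TP63*, *IVL*, *SPRR1B*, *SERPINB5*, *IGFL1* and *FXYD3*). The AP-1 motif was found in 2 of these promoters, 123 bases before the start of *IVL* and 141 bases before that of *SPRR1B*, and 4.20% of all 35116 promoters in the table hold it. *IVL* also held TATAAA 30 bases before its start, as 10.7% of all promoters do somewhere in the window. The SMAD box was found in *SPRR1B*, *FXYD3* and *SERPINB5*, where it occurred at 2 places, against 38.0% of all promoters. The *FXYD3* window (chr19:35117750-35117999, plus strand) lies inside the span of the gene, which begins at 35115823. The E-box was found once each in *SFN* and *SERPINB5* and 3 times in *SPRR1B*, against 17.5% of all promoters. None of the motifs was found in the *IGFL1* and *TP63* windows, and the *TP63* window lies at the start of the longest transcripts. None of the matches overlap. A motif is a match of letters and not a measured binding site.

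Of 10710 listed barcodes, 3170 were read and 3144 cells were retained (933 Ctrl, 937 1-day, 705 3-day and 569 7-day), and the remaining barcodes were not analysed here. The retained cells held between 25382817 and 32949874 UMIs (unique molecules) per library, with medians of 30270 to 43553 UMIs per cell. Between libraries, 23 barcode sequences recurred, at most 7 in any pair, and a doublet caller marked 33 cells, which were kept. *EPCAM* and keratins 7, 8, 18 and 19 were at 297 CPM or more in every library. The ovarian markers *PAX8*, *WT1*, *MUC16*, *MSLN*, *FOLR1* and *WFDC2* were at 2.97 CPM or less in every library. Markers of immune cells summed to 5.20 to 14.5 CPM in the 4 libraries, with 10 of 12 at or below 1 CPM and *PTPRC* at 2 UMIs or fewer. The exceptions were *CD79A* and *CD68*. In Ctrl, 1-day, 3-day and 7-day *CD79A* was at 2.80, 2.70, 3.98 and 7.88 CPM and *CD68* at 1.53, 3.00, 4.73 and 6.19. Fibroblast markers summed to 19.8 to 43.8 CPM, with 5 of 7 at or below 1 CPM and *COL3A1* without a UMI, and *FBLN1* made up nearly all of the sum. Endothelial markers summed to 0.467 to 5.40 CPM, with 5 of 6 at or below 1 CPM and *PECAM1* at 4 UMIs or fewer. The other, *CDH5*, made up nearly all of the Ctrl sum, with 161 UMIs in Ctrl and 13, 7 and 8 at 1-day, 3-day and 7-day. The 7 TGF-β response genes over the minimum level, among them *SMAD7* and *SKIL*, were at least 2-fold higher at all 3 treated time points. Of all genes over that level, 9.29%, 10.1% and 10.8% were so at 1-day, 3-day and 7-day. The response genes were listed with earlier results of these data known, so nothing is read from this. Cell cycle phase differed strongly, with 26.6% of Ctrl cells called G1 against 79.2% at 1-day, 48.5% at 3-day and 38.3% at 7-day.

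Levels are given in CPM, a gene's summed UMIs scaled to a common library total, with 95% exact Poisson intervals. These intervals, and those of the ratios, cover counting error only. Of all genes, 7747 had a mean of at least 10 CPM over the 4 libraries and form the background, and 7 of the 10 genes are among them. The minimum is set on the mean over libraries, so *TRIM29* passed it although it was below 10 CPM at 3-day and 7-day. A gene is counted as higher or lower when its ratio to the comparison library reached 2-fold.

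*CRCT1* encodes a cysteine-rich protein of stratified epithelia and lies in the epidermal differentiation complex (chromosome 1, 152514482 to 152516008, GRCh38). Its level was 289 CPM in Ctrl and 1844.5, 1866 and 1357 at 1-day, 3-day and 7-day. The log2 ratio to Ctrl was 2.67 (95% interval 2.64 to 2.71), 2.69 (2.66 to 2.72) and 2.23 (2.20 to 2.26). The 1-day and 3-day intervals overlap. The log2 ratio of 3-day to 1-day was 0.02 (0.0007 to 0.033) over all cells and 0.23 among G1 cells. The 7-day level was 0.727 times the 3-day level (0.717 to 0.737). In Ctrl, 78.5% of cells had a *CRCT1* UMI, against 100% of 569 to 937 cells in each treated library. After every cell was thinned to 18000 UMIs, the median cell held 2 *CRCT1* UMIs in Ctrl, 29 at both 1-day and 3-day, and 21 at 7-day. Even the 10th percentile of treated cells, at 6 to 11 UMIs, exceeded the Ctrl median.

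*IGFL1* (chromosome 19, 46229742 to 46231243) encodes a small secreted protein of the IGF-like family that is known from skin. It was at 22.2 CPM in Ctrl and 1239.8, 1434 and 446 at 1-day, 3-day and 7-day. The ratio to Ctrl was 55.9-fold (51.8 to 60.5) at 1-day, 64.7-fold (59.9 to 69.9) at 3-day and 20.1-fold (18.6 to 21.8) at 7-day, and no neighbouring levels overlap. Its log2 ratio stood at the 99.8, 99.7 and 99.2 percentile of all background genes at these time points. Between 3-day and 7-day the level fell by 1.68 on the log2 scale (-1.71 to -1.65), which left 0.311 of the 3-day level. *IGFL1* is also the gene whose ratio moved most when G1 cells alone were taken, and 10 cells held 74.7% of its Ctrl UMIs. Among G1 cells alone the log2 ratio to Ctrl was 4.58 at 1-day, 4.92 at 3-day and 3.68 at 7-day, against 5.81, 6.02 and 4.33 over all cells. In the earlier and later of 2 equal parts of the cells in barcode order, this log2 ratio was 6.18 and 5.47 at 1-day. It was 6.39 and 5.67 at 3-day and 4.16 and 4.43 at 7-day, so the counting intervals understate the spread.

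The spread of *IGFL1* over cells changed with its level. In Ctrl, 87 of 933 cells (9.32%, 95% exact binomial interval 7.54 to 11.4) had a UMI, and the 10 cells richest in *IGFL1* held 74.7% of its 665 UMIs. At 1-day 98.0% of cells had a UMI and the 10 richest cells held 8.77%. The thinned shares were 6.87% in Ctrl and 93.7%, 96.0% and 78.7% at 1-day, 3-day and 7-day. Treated cells remained uneven, since the thinned 10th percentile, median and 90th percentile were 1, 9.5 and 63.1 UMIs at 1-day and 0, 2 and 20.2 at 7-day. No cell type without the gene was present, so the share that free RNA adds was not measured. *IGFLR1*, the known receptor of *IGFL1*, was at 7.33, 2.00, 4.57 and 4.96 CPM, and the paralogs *IGFL2*, *IGFL3* and *IGFL4* stayed below 1 CPM in every library.

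*SFN* (chromosome 1, 26863149 to 26864456) encodes 14-3-3σ, the epithelial member of the 14-3-3 adaptor family, which holds cells before mitosis. It was at 523 CPM in Ctrl and 1504, 1077 and 754 at 1-day, 3-day and 7-day, and no intervals overlap. Relative to Ctrl the log2 ratio was 1.52 (1.497 to 1.549), 1.04 (1.01 to 1.07) and 0.53 (0.50 to 0.56), so the gain peaked at 1-day and was below 2-fold at 7-day. The 3-day ratio lies at the edge of 2-fold and was 0.97 with median-of-ratios scaling. Nearly all cells held *SFN*, from 99.6% in Ctrl to 100% at 1-day. The thinned median was 9, 27, 18 and 13 UMIs per cell, and the 10th percentile at 1-day (14 UMIs) exceeded the Ctrl median.

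*TP63* (chromosome 3, 189631389 to 189897276) encodes p63, the transcription factor of basal cells. Its level was 65.6 CPM in Ctrl and 146, 106 and 64.8 at 1-day, 3-day and 7-day. The log2 ratio to Ctrl was 1.16 (1.08 to 1.23) at 1-day, 0.69 (0.61 to 0.77) at 3-day and -0.02 (-0.11 to 0.08) at 7-day. The gain was thus seen at 1-day and 3-day, and the Ctrl and 7-day intervals overlap. Among G1 cells the 7-day ratio was 0.28 and the 1-day ratio 1.25. The share of thinned cells with a *TP63* UMI followed the same course, at 60.8%, 87.0%, 81.5% and 63.2%. Counts at the 3′ end do not separate the long p63 isoforms from those that lack the activation domain. The paralog *TP73* was below 1 CPM in every library.

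*SERPINB5* (chromosome 18, 63476958 to 63505085) encodes maspin, a clade B serpin of epithelial cells. It was at 39.8 CPM in Ctrl and 49.5, 50.8 and 63.4 at 1-day, 3-day and 7-day, and only the 1-day and 3-day intervals overlap. On the log2 scale the ratio to Ctrl was 0.31 (0.21 to 0.42), 0.35 (0.24 to 0.46) and 0.67 (0.56 to 0.78), below 2-fold at each time. Among G1 cells it was 0.01 at 1-day, 0.25 at 3-day and 0.65 at 7-day. The thinned share of cells with a UMI was 46.1%, 52.4%, 55.2% and 63.4%. Of the other 12 clade B serpins, 3 passed the minimum. *SERPINB8* was at 4.30 CPM in Ctrl and 15.1 at 7-day, *SERPINB1* at 33.8 and 26.2 and *SERPINB6* at 28.6 and 48.1.

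**Figure D1:**
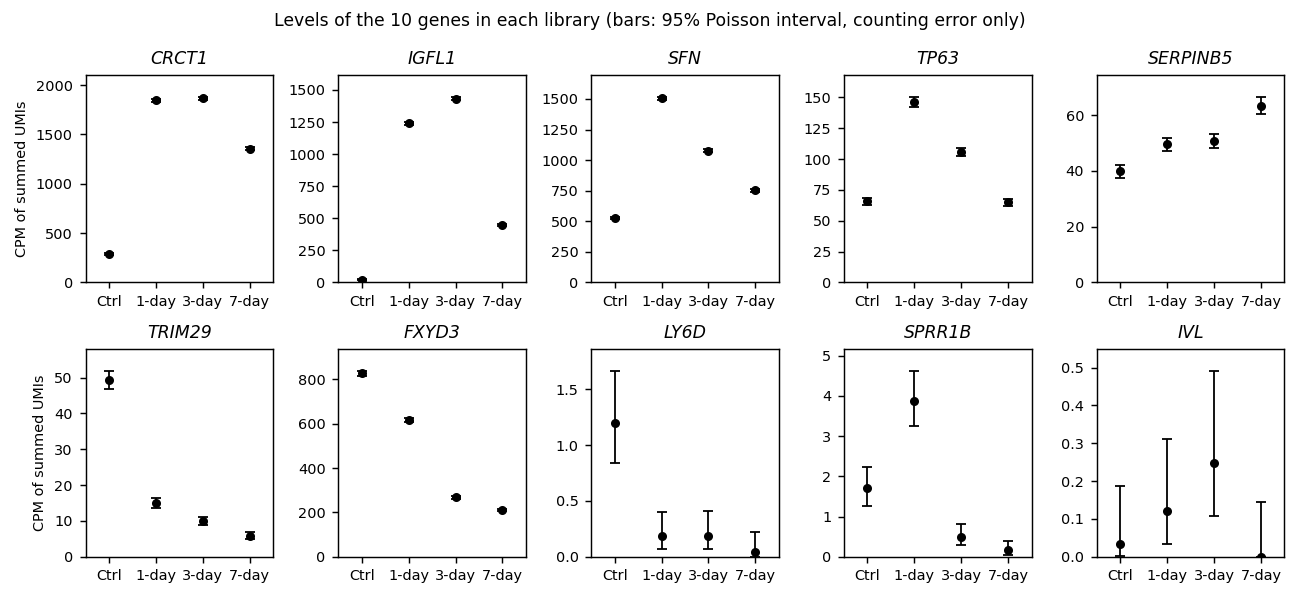
Level of each gene in the 4 libraries, in CPM of summed UMIs on a linear axis from 0 with a separate scale for each gene. Points are single libraries and bars are 95% Poisson intervals of counting error. *CRCT1* and *IGFL1* are high at 1-day and 3-day (1844.5 and 1866 CPM, 1239.8 and 1434 CPM), *SFN* and *TP63* peak at 1-day, *SERPINB5* is highest at 7-day (63.4 CPM), and *TRIM29* and *FXYD3* are highest in Ctrl (49.2 and 827 CPM).

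*TRIM29* (chromosome 11, 120111286 to 120185529) encodes a TRIM-family protein typical of basal and squamous cells. It was at 49.2 CPM in Ctrl and 15.0, 9.86 and 5.79 at 1-day, 3-day and 7-day, from 1477, 495, 317 and 147 UMIs. The log2 ratio to Ctrl was -1.71 (-1.86 to -1.56), -2.32 (-2.50 to -2.14) and -3.09 (-3.34 to -2.84), and no intervals of the 4 levels overlap. At 7-day the level was 8.50-fold lower than in Ctrl (7.17 to 10.1). The loss was largest from Ctrl to 1-day. The 3-day level was 0.657 times the 1-day level (0.568 to 0.757) and the 7-day level 0.587 times the 3-day level (0.480 to 0.716). Among G1 cells the log2 ratio of 3-day to 1-day was -0.21, and the G1 levels of 15.7 and 13.5 CPM overlap. In thinned cells the share with a *TRIM29* UMI was 47.7%, 19.1%, 15.1% and 8.93%. At 7-day the log2 ratio was lower than that of all but 0.387% of background genes.

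*FXYD3* (chromosome 19, 35115823 to 35124324) encodes a small membrane protein that regulates the sodium pump of epithelial cells. Its level was 827 CPM in Ctrl and 618, 268 and 211 at 1-day, 3-day and 7-day. Relative to Ctrl the log2 ratio was -0.42 (-0.45 to -0.39) at 1-day, -1.63 (-1.66 to -1.59) at 3-day and -1.97 (-2.02 to -1.93) at 7-day. The loss was thus later than that of *TRIM29*. From 1-day to 3-day *FXYD3* was 2.31-fold lower (2.25 to 2.37), and among G1 cells this log2 ratio was -0.91, under 2-fold. The gene remained in most cells, at 96.8% of 7-day cells, while the thinned median went from 14 UMIs in Ctrl to 10, 4 and 3. *FXYD5*, a family member known to weaken cell adhesion, went the other way, at 3.43, 5.16, 58.5 and 123 CPM. Over these time points *FXYD2* was at 9.13, 9.89, 2.89 and 1.34 CPM, below the minimum.

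*LY6D* (chromosome 8, 142784882 to 142786539) encodes a GPI-anchored surface protein of keratinocytes. It had 36 UMIs in Ctrl and 6, 6 and 1 at 1-day, 3-day and 7-day, or 1.20, 0.182, 0.187 and 0.0394 CPM. The log2 ratio to Ctrl was -2.72 (-4.26 to -1.46) at 1-day, -2.68 (-4.22 to -1.42) at 3-day and -4.93 (-10.3 to -2.36) at 7-day, so each interval lies below 0. The 3 treated levels overlap. In Ctrl its UMIs came from 18 of 933 cells, and 10 cells held 77.8% of them. Among other LY6-type genes, *LY6E* went from 370 CPM in Ctrl to 94.6 at 7-day, *PLAUR*, the urokinase receptor, from 8.27 to 138 and *CD59*, a complement inhibitor, from 194 to 518.

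*SPRR1B* (chromosome 1, 153031203 to 153032900) encodes a small proline-rich envelope precursor. It had 51 UMIs in Ctrl and 128, 16 and 4 at 1-day, 3-day and 7-day, or 1.70, 3.88, 0.498 and 0.158 CPM. On the log2 scale the ratio to Ctrl was 1.19 (0.71 to 1.69) at 1-day, -1.77 (-2.68 to -0.94) at 3-day and -3.43 (-5.36 to -1.99) at 7-day. The gain at 1-day was followed by a loss. The 3-day and 7-day levels overlap, while the log2 ratio of 7-day to 3-day was -1.66 (-3.70 to -0.03). The UMIs came from 22 Ctrl cells and 42 cells at 1-day, and 10 cells held 70.3% of those at 1-day. The 1-day ratio was 0.59 in the later of 2 equal parts of the cells in barcode order, below 2-fold. *SPRR1B* and *SPRR1A* are close copies, and how reads that match both were counted was not examined. *SPRR1A* had 3, 3, 0 and 2 UMIs.

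*IVL* (chromosome 1, 152908546 to 152911886) encodes involucrin, the classic envelope precursor and marker of maturing squamous cells. It had 1 UMI in Ctrl, 4 at 1-day and 8 at 3-day. At 7-day it had 0 of 25382817 UMIs, which allows a level of up to 0.118 CPM by the limit of 3 counts, and its Poisson interval reaches 0.145 CPM. All neighbouring levels overlap. The 3-day to Ctrl ratio, from 8 against 1 UMI, was 7.47 with an interval of 1.00 to 331. The interval of the 7-day to 3-day ratio, from 0 against 8 UMIs, lay at or below 0.742. All of these values rest on few UMIs.

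**Figure D2:**
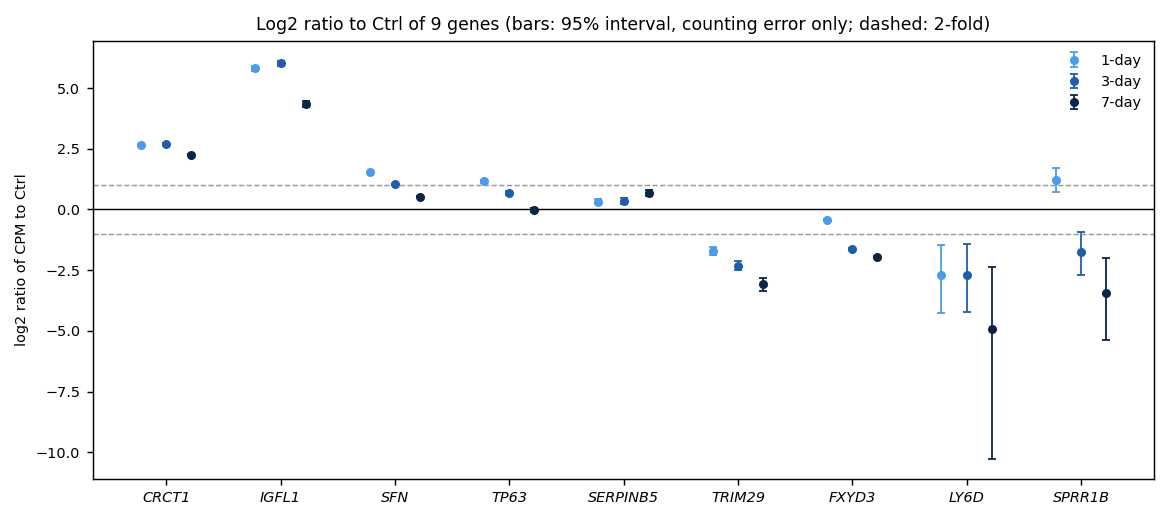
Log2 ratio of CPM to Ctrl at 1-day, 3-day and 7-day for 9 of the 10 genes, without *IVL*. Points are single library ratios, bars are 95% counting intervals and dashed lines mark 2-fold. *IGFL1* stands highest at 5.81, 6.02 and 4.33, *TRIM29* and *FXYD3* step down to -3.09 and -1.97 at 7-day, and *SPRR1B* changes side between 1-day (1.19) and 3-day (-1.77).

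Counted over the 7 genes in the background, 4 were at least 2-fold higher at 1-day (*CRCT1*, *SFN*, *TP63* and *IGFL1*), where 9.29% of background genes were, and 1 (*TRIM29*) was lower, where 7.68% were. At 3-day 3 were higher (*CRCT1*, *SFN* and *IGFL1*) against 10.1%, and 2 were lower (*TRIM29* and *FXYD3*) against 4.18%. At 7-day 2 were higher (*CRCT1* and *IGFL1*) against 10.8%, and the same 2 were lower against 4.08%. The genes were selected on these contrasts, so nothing is read from the shares. Their median log2 ratio to Ctrl was 1.16, 0.69 and 0.53, and that of all background genes was -0.04, 0.06 and 0.11. These comparisons share the Ctrl library.

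From 1-day to 3-day none of the 7 was at least 2-fold higher, where 4.31% of background genes were, and *FXYD3* was the 1 that was lower, where 1.99% were. From 3-day to 7-day none was higher, against 0.904% of background genes, and *IGFL1* was the 1 that was lower, against 0.71%. Between 3-day and 7-day *SERPINB5* was up by 0.32 on the log2 scale, and the other genes of the 7 went down, by 0.34 to 1.68. The median of the 7 was -0.51, beside 0.04 for all background genes. The share of background genes that went down was not counted. The genes were chosen with values of these libraries in view, so nothing is read from these directions or the median.

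**Figure D3:**
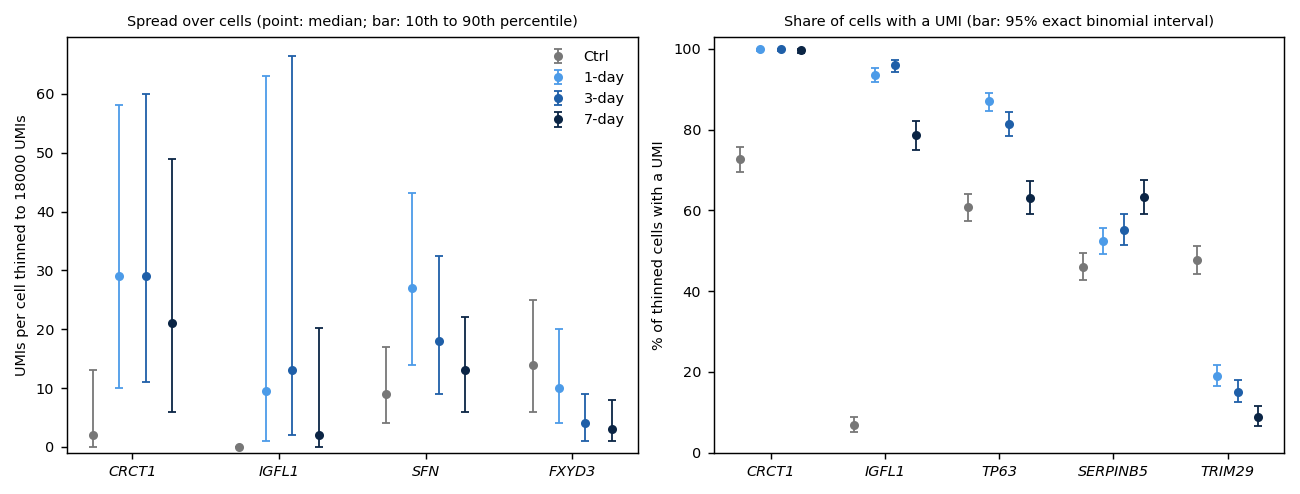
Left, UMIs per cell after thinning to 18000 UMIs for 4 genes, with points at the median and bars from the 10th to the 90th percentile of cells. Right, share of thinned cells with at least 1 UMI for 5 genes, with 95% exact binomial intervals. The *CRCT1* median goes from 2 in Ctrl to 29 at 1-day, the share with *IGFL1* from 6.87% to 93.7%, and the share with *TRIM29* from 47.7% in Ctrl to 8.93% at 7-day.

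Within each library the genes were lower in G2M cells than in G1 cells. This held for all 7 at 1-day, 3-day and 7-day and for 6 of 7 in Ctrl, where *TP63* was at 65.8 CPM in G1 and 67.3 in G2M. Of all background genes, 40.9% to 42.9% were lower in G2M. At least 0.25 lower on the log2 scale were 6, 7, 7 and 7 of the 7 genes, against 12.2%, 17.4%, 18.5% and 22.2% of background genes. The step of 0.25 was chosen after the values were seen, and some genes lie just past it, such as *SFN* at 7-day (-0.28). Nothing is read from these counts. In Ctrl, *IGFL1* was at 58.0 CPM in the 248 G1 cells and at 10.3 CPM in the 422 G2M cells. G1 cells held 419 of its 665 UMIs. As 10 cells held 74.7% of these 665 UMIs, the gap may rest on few cells, and the phase of those cells was not examined. *CRCT1* was at 408 CPM in G1 against 235 in G2M in Ctrl, and at 2023 against 1210 at 1-day. The log2 ratio of G2M to G1 fell between Ctrl and 7-day for *TP63* (0.03 to -0.64), *FXYD3* (-0.33 to -0.92) and *TRIM29* (-0.27 to -0.89). It fell less for *CRCT1* (-0.79 to -0.88) and *SERPINB5* (-0.62 to -0.75). For *SFN* (-0.38 to -0.28) and *IGFL1* (-2.49 to -1.60) it rose. The G1 share itself went from 26.6% in Ctrl to 79.2% at 1-day, so phase moved with treatment. Among G1 cells alone *CRCT1*, *SFN* and *TP63* were still at least 2-fold higher at 1-day, with log2 ratios of 2.31, 1.39 and 1.25, and *TRIM29* was lower at -1.79.

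**Figure D4:**
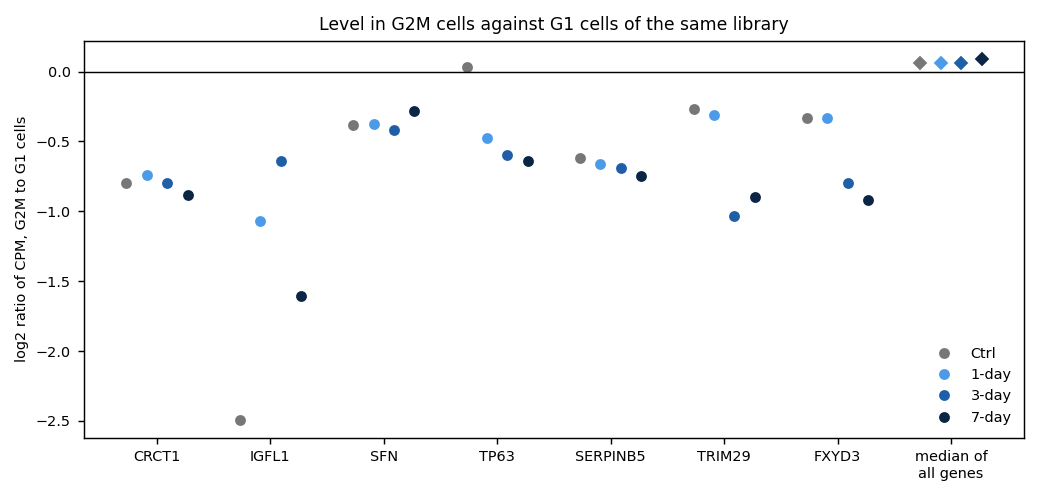
Log2 ratio of CPM in G2M cells to CPM in G1 cells of the same library for the 7 genes over the minimum. Circles are the genes in the 4 libraries and diamonds are the medians of all background genes (0.06 to 0.09). All values for the genes but that of *TP63* in Ctrl (0.03) lie below 0, and *IGFL1* in Ctrl is lowest (-2.49). In Ctrl 10 cells held 74.7% of the *IGFL1* UMIs.

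Across cells of 1 library the genes were weakly related. On thinned counts, the 21 pairs of the 7 genes had a median Spearman correlation of 0.16 in Ctrl (844 cells), 0.10 at 1-day (900), 0.13 at 3-day (677) and 0.15 at 7-day (549). The highest was 0.27, for *CRCT1* with *IGFL1* at 7-day, and 20, 17, 21 and 21 pairs were above 0. For comparison, pairs were taken over all background genes with a UMI in at least 20% of the thinned cells of a library. Their median was 0.00 to 0.01, and 52.9% to 54.3% of these pairs were above 0. The 7 genes were not held to that share, which *IGFL1* in Ctrl and *TRIM29* in the treated libraries did not reach. At 1-day the 4 pairs below 0 were all pairs of *TRIM29*. The cells share a library and mix its cell cycle phases, and in sparse counts such values are a description only.

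The genes most like each of the 7 across cells of its highest library were keratins, S100 proteins and adhesion genes. Among those closest to *CRCT1* at 3-day were *S100A10* and *S100A2* (both 0.40). *SFN* at 1-day was closest to *S100A11* (0.43), *KRT17* (0.41) and *ANXA2* (0.40). *TRIM29* in Ctrl was closest to *KRT17* (0.43), *TMSB10* (0.38) and *S100A2* (0.32), and *FXYD3* in Ctrl to *HSPB1* (0.37), *KRT19* (0.36) and *S100A11* (0.32). The *TP63* values at 1-day were lower, with the integrins *ITGA3* and *ITGB4* both at 0.23. *SERPINB5* at 7-day was closest to the junction gene *JUP* (0.26), *TMSB10* (0.25) and the integrin *ITGAV* (0.25), and *IGFL1* at 3-day to *S100A2* (0.35), *S100A10* (0.28) and *ITM2B* (0.26). These Spearman values were computed over 549 to 900 cells and 6558 to 7164 genes.

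In level, *CRCT1* was set apart from its neighbours other than S100 genes in the epidermal differentiation complex. Of 61 protein-coding genes over 1649 kb from *S100A10* to *S100A1*, 8 reached 10 CPM in any library, and these were *CRCT1* and 7 S100 genes. *S100A2* was at 4632 CPM in Ctrl and 13265 at 3-day, *S100A10* at 1069 and 2202, and *S100A11* at 1223 and 3481. *S100A16*, *S100A13* and *S100A3* were at 737, 91.1 and 6.43 CPM in Ctrl and at 1034, 159 and 13.2 at 3-day, and *S100A14* was at 742 and 502. Another 44 genes were at or below 1 CPM in every library, 20 of them without a UMI. The 18 late cornified envelope genes reached at most 4.06 CPM. In the SPRR cluster none of 10 genes passed the minimum, and *SPRR3* had 76, 56, 8 and 1 UMIs.

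Other genes of the basal and the upper layers were measured beside the 10. All lists were chosen with earlier results of these data known, so nothing is read from their shares or medians. Of 20 basal layer genes, 13 passed the minimum. At 7-day 7 of the 13 were at least 2-fold higher than Ctrl and 1 lower, where 10.8% and 4.08% of background genes were, with a median log2 ratio of 1.04 beside 0.11 over all of these. With median-of-ratios scaling 5 were higher, without *ITGB4* and *COL17A1*, and 2 lower. *LAMB3*, a chain of laminin-332, went from 61.8 to 490 CPM, *CDH3*, which encodes P-cadherin, from 12.2 to 72.3 and the growth factor receptor *EGFR* from 33.0 to 196. *KRT15* was lower, at 93.7 and 24.6 CPM, and so was *KLF5*, at 123 and 61.5, just within 2-fold. *KRT17* was at 424, 2546, 2503 and 1253 CPM and *KRT14* at 7.97, 33.5, 22.5 and 8.55, both highest at 1-day as *SFN* and *TP63* were. *KRT5*, the defining basal keratin, had 1, 0, 1 and 0 UMIs and *BNC1*, a basal transcription factor, had none.

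Of 47 suprabasal and cornified layer genes, 9 passed the minimum and 27 were at or below 1 CPM in every library. At 7-day 1 of the 9 (*DSC2*, a desmosomal cadherin, 7.23 to 18.5 CPM) was at least 2-fold higher and 2 were lower, against the same 10.8% and 4.08%, with a median log2 ratio of 0.04 beside 0.11. Those 2 were *KRT13*, the keratin of internal squamous epithelia, which went from 67.0 to 1.06 CPM, and *PPL*, which encodes the envelope protein periplakin, from 62.6 to 10.2. *EVPL*, the envoplakin gene, was at 33.1, 67.3, 25.5 and 20.9 CPM, and *KRT6A* was at 40.0 and 63.7. *CNFN* was at 10.4 and 14.7 CPM. The suprabasal keratin *KRT10* was at 709 to 765 CPM and the protease inhibitor *CSTB* at 314 to 425 CPM over the 4 libraries. *TGM1*, the transglutaminase that links the envelope, was below 1 CPM in every library.

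Of 20 regulators of stratified epithelium, 9 passed the minimum. At 7-day 2 were at least 2-fold higher, *CEBPB* (48.2 to 101 CPM) and *TFAP2A* (25.8 to 52.1), and 2 were lower, *ELF3* (269 to 52.8) and *CEBPA* (25.8 to 5.28), again beside 10.8% and 4.08% of background genes. Both gains lie at the edge of 2-fold, and with median-of-ratios scaling 0 were higher and 3, with *AHR*, were lower. *KLF4* was at 8.13, 32.5, 18.6 and 13.4 CPM, highest at 1-day as *TP63* was, and *AHR* was at 57.1 and 28.7. The median log2 ratio of the 9 was 0.14, beside 0.11. In the 14-3-3 family *SFN* was the 1 gene of 7 that was at least 2-fold higher at 1-day and at 3-day, and none was at 7-day. The others ranged at 1-day from -0.86 (*YWHAH*) to 0.70 (*YWHAZ*) on the log2 scale.

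**Figure D5:**
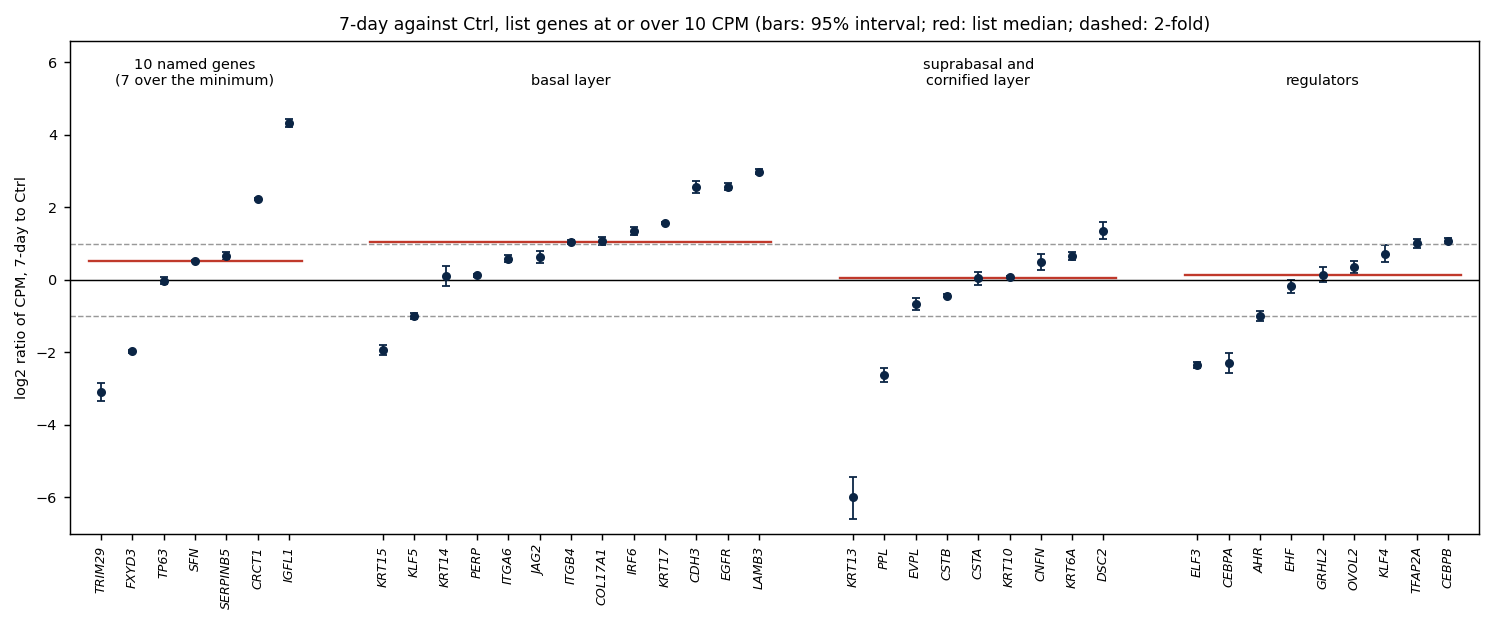
Log2 ratio of 7-day to Ctrl for the genes of 4 lists that passed the minimum of 10 CPM, ordered within each list. Points are single library ratios, bars are 95% counting intervals, red lines are list medians and dashed lines mark 2-fold. Basal layer genes have a median of 1.04 and reach 2.99 (*LAMB3*). The suprabasal and cornified list has a median of 0.04 and its lowest gene is *KRT13* (-5.98). The lists were chosen with earlier results of these data known.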

How the data were processed

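Each deposited matrix holds raw UMI counts, with a row per gene and a column per cell. Per the study's methods and the submitters' processing notes, the authors made them with Cell Ranger 2.0.1 on GRCh38, and the values are whole numbers. Only the first cells in barcode order of each matrix were read, so sums cover 22.9% to 36.0% of the listed barcodes. Cells with more than 200 genes and at most 20% mitochondrial UMIs were retained, and doublets marked by Scrublet (scanpy 1.11.5) were kept. UMIs were summed per library and scaled to CPM. Poisson, conditional binomial (ratios) and exact binomial (shares) intervals at 95% came from scipy 1.17.1. The ratio intervals, the 2-fold calls and the thinning were tested on simulated counts, and the other steps were not. All simulated cells of a library shared the same expected profile. Coverage for genes spread unevenly over cells was therefore not tested. Each cell was thinned to 18000 UMIs for shares, spreads and correlations, which left out 174 shallower cells. Cell cycle phases were scored with the 97 phase genes of Seurat 5.3.0, of which 96 matched. Gene positions are from GENCODE release 44 and promoters from RefSeq.

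The 10 genes and all lists were chosen with earlier results of these data known. Genes named besides the 10 were, by rule, the 3 highest and 3 lowest of each list by the 7-day ratio among those over 10 CPM on average, the 3 genes closest to each of the 7 over the minimum by Spearman correlation, and genes of the differentiation complex over 10 CPM. Some genes that the rule names are not reported here. Other named genes are list members added after their values were seen, as were the comparisons with all genes by phase and over gene pairs and the step of 0.25. Alternatives were another scaling, thinning, a 10% mitochondrial limit, doublets left out, means over cells, G1 cells only, folds of 1.5 and 3, no minimum, and either of 2 equal parts of the cells. The other scaling of the lists was added after seeing the data. No test over samples was possible with 1 library per condition.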

Additional observations from a re-analysis of the deposited data

Results flagged for a closer look

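*SPRR1B* moved in opposite directions between time points. Its log2 ratio to Ctrl was 1.19 at 1-day and -1.77 at 3-day and -3.43 at 7-day, from 51, 128, 16 and 4 UMIs in the 4 libraries. The time points have 1 library each, so this difference was not tested. The UMIs came from few cells, 22 in Ctrl and 42, 8 and 3 at 1-day, 3-day and 7-day, and the 1-day ratio was 0.77 among G1 cells and 0.59 in the later of 2 equal parts of the cells in barcode order.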

How the results depend on the processing

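No paired analysis was possible because the 4 conditions have a single library each. For the same cause no replicate could be left out. Of 90 recomputed counts of genes past 2-fold, 79 were within 1.5 times the value reported. The exceptions come with other folds, cells or genes entered. With a fold of 3, 2 genes were higher at 1-day (against 4), where 4.29% of background genes were. From 1-day to 3-day 0 were then lower (against 1), where 0.607% were. With a fold of 1.5, 2 were lower from 1-day to 3-day and 3 from 3-day to 7-day (against 1 each). The shares of background genes were 5.43% and 2.67%. Among G1 cells 0 were lower from 1-day to 3-day, where 1.76% of background genes were. With no minimum level, which lets *IVL*, *SPRR1B* and *LY6D* in, the genes lower than Ctrl were 2 at 1-day, 4 at 3-day and 5 at 7-day (against 1, 2 and 2), and from 1-day to 3-day 1 was higher and 2 were lower (against 0 and 1). From 3-day to 7-day 4 were then lower (against 1).

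Of 354 recomputed log2 ratios, 251 stayed within the counting interval of the reported value and 102 did not. *SPRR1B* from 3-day to 7-day reversed, at 0.79 in the later of 2 equal parts of the cells in barcode order against -1.66 over all. For the 7 genes over the minimum, 9 of 280 ratios changed sign, all from reported values near 0 (*TP63* at 7-day against Ctrl, and *CRCT1* and *SERPINB5* from 1-day to 3-day). Among G1 cells the *TP63* ratio became 0.28. Its G1 levels were 65.8 CPM (60.1 to 72.0) in Ctrl and 79.8 (74.2 to 85.7) at 7-day, which do not overlap. The largest move was 1.22, for *IGFL1* at 1-day among G1 cells. Median-of-ratios scaling moved all genes by -0.11 from Ctrl to 7-day and by -0.12 from 1-day to 3-day. Fewer than 10 UMIs a library limit *IVL* in every library, *LY6D* in the treated libraries and *SPRR1B* at 7-day.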

Other observations

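Among genes of squamous epithelium below the minimum, 3 with fewer UMIs at each later time point were picked after their values were seen. *KLK8* (13, 12, 9 and 7 UMIs) and *HRNR* (8, 4, 1 and 0) also had fewer UMIs at each, in libraries of unlike totals. In CPM *KLK8* was level from 3-day to 7-day, at 0.280 and 0.276. Its 7-day log2 ratio to Ctrl had an interval of -2.22 to 0.78, so no loss of *KLK8* is shown. Others rose at each step, such as *LCE3E* at 0.167, 1.82, 1.99 and 4.06 CPM and *CDSN* with 1, 3, 4 and 10 UMIs. *SCEL* with 205, 31, 18 and 113 UMIs and *KRT16* with 26, 235, 178 and 91 did neither. The genes going each way were not counted, so no general course is read from the 3. *KRT4*, the partner of *KRT13*, had 438 UMIs in Ctrl and 16, 1 and 0 at 1-day, 3-day and 7-day, so the log2 ratio to Ctrl was -4.91 (-5.73 to -4.19) at 1-day. *CALML3*, a calmodulin-like gene of epithelia, had 398, 195, 34 and 4 UMIs, with a 7-day ratio of -6.40 (-8.28 to -5.03). *SPRR3* had 76, 56, 8 and 1 UMIs. *CRCT1*, which is likewise known from the esophagus, was higher at each of these treated time points.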
